A study of Mus musculus with 12 samples.

Results

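The genes Igfbp2, Igfbp3, Igfbp4, Igfbp5, Igfbp6 and Igfbp7 encode the insulin-like growth factor (IGF) binding proteins studied here. All 6 were matched by symbol to their Ensembl identifiers among the 49671 genes listed, and 5 of them passed the filter on low counts, which kept 18668 genes (3 or more libraries over 1 count). The family was chosen by the log2FC of Igfbp5 with Lap2 siRNA, which falls strongly. The effect of Lap2 siRNA on these genes, its interaction with serum and every comparison of Igfbp5 are therefore descriptions without a p-value. So are the serum responses of Igfbp2 and Igfbp4 in Lap2-depleted cells. RNA-seq was performed on NIH 3T3 cells, an established mouse embryonic fibroblast line, in 4 groups of 3 libraries. Control siRNA treated cells and Lap2-depleted cells, which received an siRNA against all products of the Tmpo gene, were each either serum-starved (0.3% FBS) or serum-stimulated (15% FBS for 45 min). For these libraries 1 siRNA sequence against Lap2 and 1 negative control siRNA were used, so an effect of losing Lap2 and an effect particular to that sequence cannot be told apart. The study's methods call the libraries triplicates without saying whether they came from separate cultures, and the p-values measure only the spread between these libraries.

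IGF-binding proteins are secreted proteins that hold IGF1 and IGF2 in the extracellular fluid, keep them from the IGF1 receptor or deliver them near it, and release them when proteases cut the binding protein. Igfbp2, Igfbp4 and Igfbp5 encode binders that fibroblasts and bone cells are known to secrete, Igfbp3 encodes the main carrier in serum, Igfbp6 encodes a binder that prefers IGF2, and Igfbp7 encodes a relative that binds IGFs weakly and is found in the matrix. Lap2 proteins, made from Tmpo, are components of the nuclear envelope and nucleoplasm.

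The genes lie at 5 places in the mouse genome (GRCm38/mm10, GENCODE M21). Igfbp2 (ENSMUSG00000039323, chr1:72824503-72852474, plus strand) and Igfbp5 (ENSMUSG00000026185, chr1:72857932-72874884, minus strand) are neighbours whose 3′ ends face each other across 5457 bp. Igfbp3 (ENSMUSG00000020427, chr11:7206086-7213923, minus strand) and Igfbp4 (ENSMUSG00000017493, chr11:99041244-99054392, plus strand) share a chromosome but are far apart. Igfbp6 (ENSMUSG00000023046) spans chr15:102144362-102149511 on the plus strand, and Igfbp7 (ENSMUSG00000036256) spans chr5:77349240-77408041 on the minus strand.

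The 250 bases before the RefSeq start site of the 2 members that were lower with Lap2 siRNA at adequate counts, Igfbp4 and Igfbp5, and of the 2 abundant members that were not, Igfbp6 and Igfbp7, are shown so that the start regions can be compared (RefSeq, GRCm38.p6, each 5′ to 3′ on the strand of its gene). Capitals mark matches on either strand to the searched motifs, which were the TATA box written as TATAAA, the AP-1 motif written as TGANTCA, the FOXO motif written as GTAAACA, the TEAD motif written as CATTCC, the Sp1 motif written as GGGCGG, and the CArG box of serum response factor.
Igfbp4: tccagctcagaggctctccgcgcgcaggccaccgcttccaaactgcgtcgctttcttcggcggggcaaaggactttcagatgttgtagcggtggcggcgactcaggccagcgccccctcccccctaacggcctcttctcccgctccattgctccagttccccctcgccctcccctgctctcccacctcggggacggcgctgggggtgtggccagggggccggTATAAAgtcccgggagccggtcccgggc
Igfbp5: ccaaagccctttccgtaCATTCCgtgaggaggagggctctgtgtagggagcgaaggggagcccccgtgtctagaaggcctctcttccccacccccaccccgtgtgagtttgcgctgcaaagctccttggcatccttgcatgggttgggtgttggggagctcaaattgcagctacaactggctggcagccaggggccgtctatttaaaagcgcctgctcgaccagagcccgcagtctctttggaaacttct
Igfbp6: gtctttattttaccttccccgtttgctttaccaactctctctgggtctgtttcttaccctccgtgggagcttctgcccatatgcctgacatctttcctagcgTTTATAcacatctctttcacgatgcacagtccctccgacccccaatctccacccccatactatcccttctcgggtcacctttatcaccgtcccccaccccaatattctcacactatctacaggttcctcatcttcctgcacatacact
Igfbp7: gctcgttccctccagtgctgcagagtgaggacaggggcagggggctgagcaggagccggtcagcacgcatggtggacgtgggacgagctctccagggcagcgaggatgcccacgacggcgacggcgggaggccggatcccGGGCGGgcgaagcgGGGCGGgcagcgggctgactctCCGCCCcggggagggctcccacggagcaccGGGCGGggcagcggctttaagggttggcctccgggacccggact
These windows are chr11:99040994-99041243 (plus strand) for Igfbp4, chr1:72874866-72875115 (minus strand) for Igfbp5, chr15:102143936-102144185 (plus strand) for Igfbp6 and chr5:77408046-77408295 (minus strand) for Igfbp7. The Igfbp4 window held TATAAA from 28 to 23 bases before the start, and 12.4% of 32851 mouse promoter windows of this length held that motif. The Igfbp5 window held 1 CATTCC match from 233 to 228 bases before the start, a motif in 12.6% of windows. The Igfbp6 window held a TATAAA match read on the other strand from 148 to 143 bases before the RefSeq start, which lies upstream of the GENCODE start of the gene. The Igfbp7 window held 4 GGGCGG matches, a motif in 32.7% of windows. The AP-1 motif (in 6.75% of windows), the FOXO motif (3.17%) and the CArG box (1.47%) had no match in these 4 windows. The windows also differed in base composition, from 49.6% GC in Igfbp6 through 58.8% in Igfbp5 and 69.2% in Igfbp4 to 74.0% in Igfbp7. The matches describe letters only and were not related to the changes below.

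Library totals lay between 18026298 and 26265253 counts. The targeted gene Tmpo had mean normalized counts (counts scaled to a common library size) of 2822 ± 57.0 (SD, n = 3) in control cells and 1083 ± 97.3 in Lap2-depleted cells in 0.3% FBS, and of 3175 ± 136 and 706 ± 87.0 in 15% FBS. Among 11 fibroblast markers, 8 passed as lower and 2 as higher with Lap2 siRNA in 0.3% FBS (edgeR adjusted p under 0.05). Of all genes tested, 18.6% passed as lower and 17.8% as higher there. In 15% FBS 9 markers passed as lower and 0 as higher, beside 12.1% and 11.4% of all genes. Summed, the 11 markers had 4.14 to 4.24% of the TMM-scaled library size in starved control cells and 4.27 to 4.70% in stimulated control cells. They had 2.50 to 3.00% in starved Lap2-depleted cells and 3.03 to 3.40% in stimulated Lap2-depleted cells. The TMM factors were 1.04 in starved and 0.893 to 0.905 in stimulated control libraries. They were 1.12 in starved and 0.95 to 0.96 in stimulated Lap2-depleted libraries, so shares of the raw counts differ from these percentages. No fibroblast marker was at 0. Epithelial markers summed to at most 1.11 CPM (counts scaled to a common total per library), endothelial markers to 1.78, immune markers to 2.56 and skeletal muscle markers to 0.767, with Krt18, Cldn4, Cd3e, Myod1, Myog and Ckm at 0. Adipocyte markers summed to 8.24 to 11.7 CPM in starved and 9.80 to 11.2 CPM in stimulated control cells. In Lap2-depleted cells they summed to 13.5 to 17.0 CPM when starved and 20.3 to 27.1 CPM when stimulated. Osteoblast markers summed to 46.6 to 54.1 CPM in starved and 67.6 to 83.5 CPM in stimulated control cells. In Lap2-depleted cells they summed to 50.9 to 57.0 and 69.2 to 78.6 CPM. In each of these 2 lists 3 of 4 genes stayed under 1 CPM in all libraries, so the sums follow Lpl and Runx2 and do not describe marker sets that rise together. The part of the fibroblast marker decrease in the results below was not tested, and fewer cells expressing a gene and less RNA per cell cannot be told apart.

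Igfbp6 and Igfbp7 made up nearly all IGF-binding protein RNA in these fibroblasts. On a scale of CPM per kb of exon, which allows levels of different genes to be compared, Igfbp6 had a mean level of 181 ± 21.3 (SD over 12 libraries), Igfbp7 53.4 ± 5.98, Igfbp4 6.07 ± 2.45, Igfbp5 1.04 ± 0.782 and Igfbp2 0.235 ± 0.150. Igfbp6 exceeded Igfbp7 in 12 of 12 libraries by 3.01 to 3.62 times. Igfbp7 exceeded Igfbp4, and Igfbp4 exceeded Igfbp5, in each library as well, although the ranges of Igfbp4 (1.99 to 9.01) and Igfbp5 (0.0903 to 2.15) overlapped when libraries were pooled. Igfbp5 exceeded Igfbp2 in 11 of 12 libraries, and their ranges overlapped when libraries were pooled. Within groups they overlapped only in starved Lap2-depleted cells (0.0903 to 0.146 for Igfbp5 and 0 to 0.134 for Igfbp2). In starved control cells Igfbp5 had 1.65 to 2.15 and Igfbp2 0.194 to 0.600. Igfbp3 had 0 counts in all 12 libraries, and a floor of 3 counts in a library allows a level of at most 0.0525 CPM per kb. This floor covers counting error only.

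**Figure D1:**
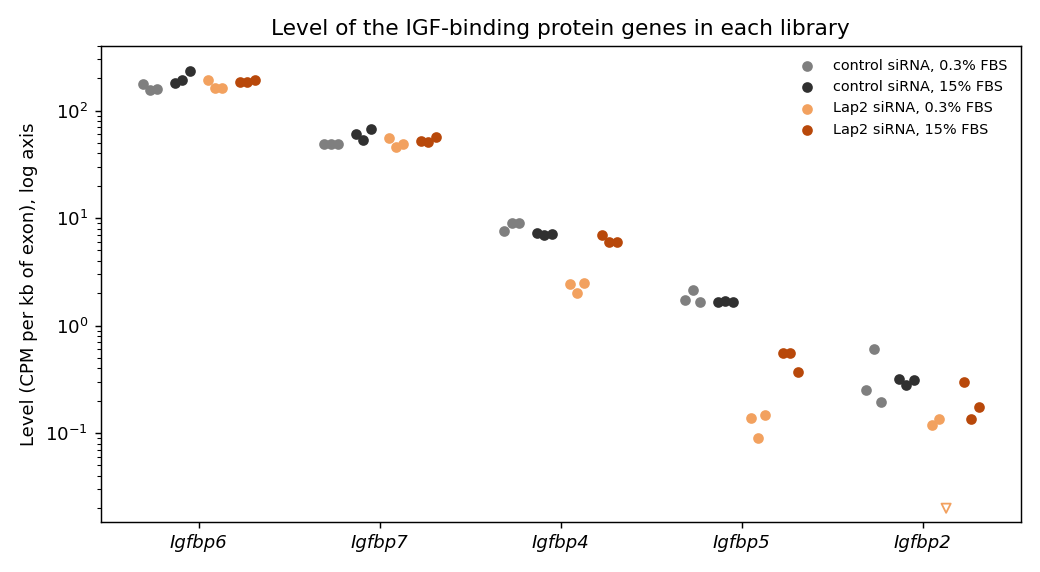
Level of each detected IGF-binding protein gene in each library, in CPM per kb of exon on a log axis, with 3 points per group. The open triangle marks a library with 0 counts of Igfbp2, and Igfbp3, with 0 counts in all libraries, is not drawn. Igfbp6 and Igfbp7 sit at the top with little spread, while Igfbp4 and Igfbp5 drop in starved Lap2-depleted cells.

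The summed level of the family was 223 ± 10.2 CPM per kb (SD, n = 3) in starved control cells, 272 ± 32.6 in stimulated control cells, 225 ± 21.6 in starved Lap2-depleted cells and 248 ± 7.22 in stimulated Lap2-depleted cells. Igfbp6 held 73.1 to 76.5% of this sum and Igfbp7 21.6 to 22.4% as group means. Igfbp4 fell from 3.83% of it in starved control cells to 1.03% in starved Lap2-depleted cells.

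Igfbp5, whose product binds IGFs and matrix, was lower in Lap2-depleted cells in both media. Starved control libraries had 220, 272 and 209 normalized counts and starved Lap2-depleted libraries had 17.4, 11.4 and 18.5. Stimulated control libraries had 209, 217 and 212 and stimulated Lap2-depleted libraries had 70.5, 71.0 and 47.3. The 4 groups fell into 3 levels that did not overlap, with both control groups together at the top, stimulated Lap2-depleted cells in the middle and starved Lap2-depleted cells at the bottom. With Lap2 siRNA, Igfbp5 was at 6.76% of control in 0.3% FBS (log2FC −3.87 ± 0.20, standard error) and at 29.6% of control in 15% FBS (log2FC −1.76 ± 0.16). In 0.3% FBS, 0.643% of the genes tested had a lower log2FC, and in 15% FBS 2.80% did. Serum gave a log2FC of −0.14 ± 0.14 with control siRNA and 1.97 ± 0.24, or 3.91-fold, with Lap2 siRNA. Scaling to total counts moved the first value to −0.35. The counts behind the lowest group were 19, 11 and 18 reads.

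Igfbp4, whose product mainly inhibits IGF action and is cut by pregnancy-associated plasma protein A, was lower with Lap2 siRNA in starved cells and near control in stimulated cells. Starved control libraries had 702, 839 and 839 normalized counts, and starved Lap2-depleted libraries had 228, 185 and 232. Stimulated control libraries had 671, 649 and 669, and stimulated Lap2-depleted libraries had 648, 557 and 561. The starved Lap2-depleted libraries stood apart from the other 9, while the stimulated groups approached each other without overlapping. Igfbp4 was at 27.1% of control in 0.3% FBS (log2FC −1.88 ± 0.10) and at 88.8% of control in 15% FBS (log2FC −0.17 ± 0.09).

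**Figure D2:**
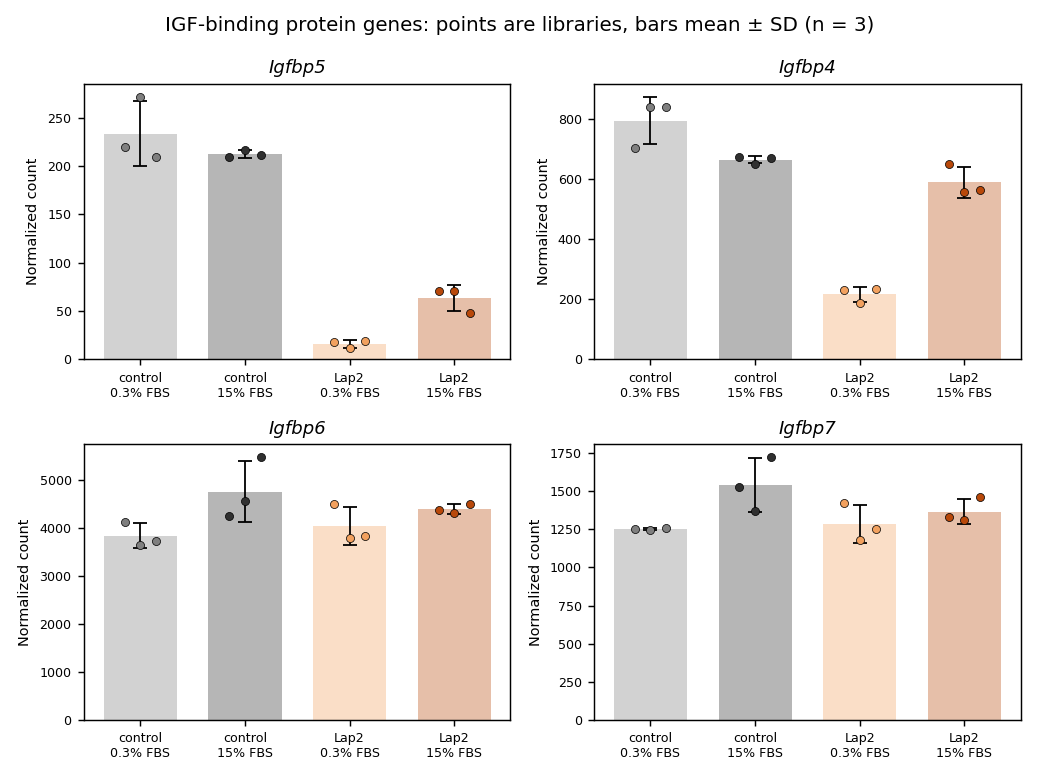
Normalized counts of Igfbp5, Igfbp4, Igfbp6 and Igfbp7 in the 4 groups. Points are libraries, bars are means and error bars are SD (n = 3). Igfbp5 and Igfbp4 are lowest in Lap2-depleted cells in 0.3% FBS (means 15.8 and 215), while Igfbp6 and Igfbp7 vary little between groups.

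Igfbp2, the neighbour of Igfbp5, was rare. Its raw counts were 10, 27 and 7 in starved control cells, 14, 11 and 11 in stimulated control cells, 5, 5 and 0 in starved Lap2-depleted cells, and 10, 5 and 7 in stimulated Lap2-depleted cells. The starved Lap2-depleted libraries lay below all starved control libraries, and the stimulated groups overlapped. The log2FC with Lap2 siRNA was −2.03 ± 0.66 in 0.3% FBS and −0.60 ± 0.59 in 15% FBS. The first value was −1.35 without replicate 2 of the starved control cells and −1.47 without replicate 3 of the starved Lap2-depleted cells, and either omission ended its call.

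Igfbp6, which encodes the IGF2-preferring binder, had 4127, 3636 and 3723 normalized counts in starved control cells and 4487, 3792 and 3834 in starved Lap2-depleted cells. It had 4240, 4551 and 5460 in stimulated control cells and 4362, 4300 and 4496 in stimulated Lap2-depleted cells. The siRNA groups overlapped in both media, with log2FC of 0.08 ± 0.08 in 0.3% FBS and −0.11 ± 0.08 in 15% FBS. Igfbp7 had 1255, 1247 and 1256 normalized counts in starved control cells and 1423, 1180 and 1255 in starved Lap2-depleted cells. It had 1531, 1368 and 1722 in stimulated control cells and 1332, 1309 and 1460 in stimulated Lap2-depleted cells. Its siRNA groups overlapped too, with log2FC of 0.04 ± 0.08 and −0.17 ± 0.08.

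Of the 5 members tested, 3 (Igfbp2, Igfbp4 and Igfbp5) passed the threshold with Lap2 siRNA in 0.3% FBS, all lower, where 36.5% of all genes tested passed and 18.6% passed as lower. In 15% FBS, Igfbp5 alone passed, as lower, where 23.4% of all genes passed and 12.1% passed as lower. These counts come from the comparison that chose the family, and nothing is read from them.

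Serum stimulation of control siRNA treated cells moved 3 of 5 members past the threshold (edgeR quasi-likelihood test, Benjamini-Hochberg adjusted p under 0.05), beside 29.5% of all genes tested. Igfbp6 rose 1.24-fold (log2FC 0.31 ± 0.08, adjusted p = 0.0019) and Igfbp7 rose 1.23-fold (log2FC 0.30 ± 0.08, adjusted p = 0.0037), each without overlap between the starved and stimulated libraries. Igfbp4 fell to 83.6% (log2FC −0.26 ± 0.09, adjusted p = 0.028). Igfbp2 had a log2FC of −0.22 ± 0.55 (adjusted p = 0.83). These calls were fragile. Without replicate 3 of the stimulated control cells 0 members passed, with Igfbp6 at 0.20 (adjusted p = 0.054) and Igfbp7 at 0.21 (adjusted p = 0.06). The Igfbp4 call was also lost without each of replicates 2 and 3 of the starved (log2FC −0.20 and −0.21) and replicates 1, 2 and 3 of the stimulated control cells (−0.27, −0.24 and −0.27). Scaling to total counts shifted the median gene by −0.21, and Igfbp6 and Igfbp7 then had log2FC of 0.10 and 0.09 and did not pass.

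In Lap2-depleted cells the same stimulation raised Igfbp4, which fell in control cells. Igfbp4 rose 2.73-fold (log2FC 1.45 ± 0.10), where 33.2% of all genes passed and 18.3% passed as higher. No p-value is given for Igfbp4, and Igfbp5 is left to the description above. The low starved Lap2-depleted libraries of both genes are the baseline here. Igfbp2 had a log2FC of 1.21 ± 0.71 on counts of at most 10. Igfbp6 (0.12 ± 0.08, adjusted p = 0.27) and Igfbp7 (0.09 ± 0.08, adjusted p = 0.46) did not pass, and their log2FC changed sign, to −0.11 and −0.14, when libraries were scaled to total counts. Igfbp6 passed without replicate 1 of the starved Lap2-depleted cells (log2FC 0.19, adjusted p = 0.034).

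The difference between the serum responses was computed as an interaction (response with Lap2 siRNA minus response with control siRNA). It equals the difference between the Lap2 siRNA effects in the 2 media, so for the members it is a description. It was 1.71 ± 0.14 on the log2 scale for Igfbp4 and 2.11 ± 0.28 for Igfbp5. For Igfbp2 it was 1.43 ± 0.90, for Igfbp6 −0.19 ± 0.11 and for Igfbp7 −0.21 ± 0.11. Of all genes, 13.6% passed and 7.09% passed with a higher response in Lap2-depleted cells, and nothing is read from the members beside these shares. The serum and siRNA comparisons share libraries, and the low starved Lap2-depleted libraries enter both the decrease with Lap2 siRNA and the rise with serum. Tmpo was at 38.4% of control in 0.3% FBS and at 22.2% in 15% FBS, so the interaction of any gene also compares different depths of depletion. Igfbp4 and Igfbp5 differed in how far they returned, since the ratio of their levels per kb was 4.07 to 5.45 over the control libraries, 17.0 to 22.0 in starved and 10.7 to 16.1 in stimulated Lap2-depleted cells.

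**Figure D3:**
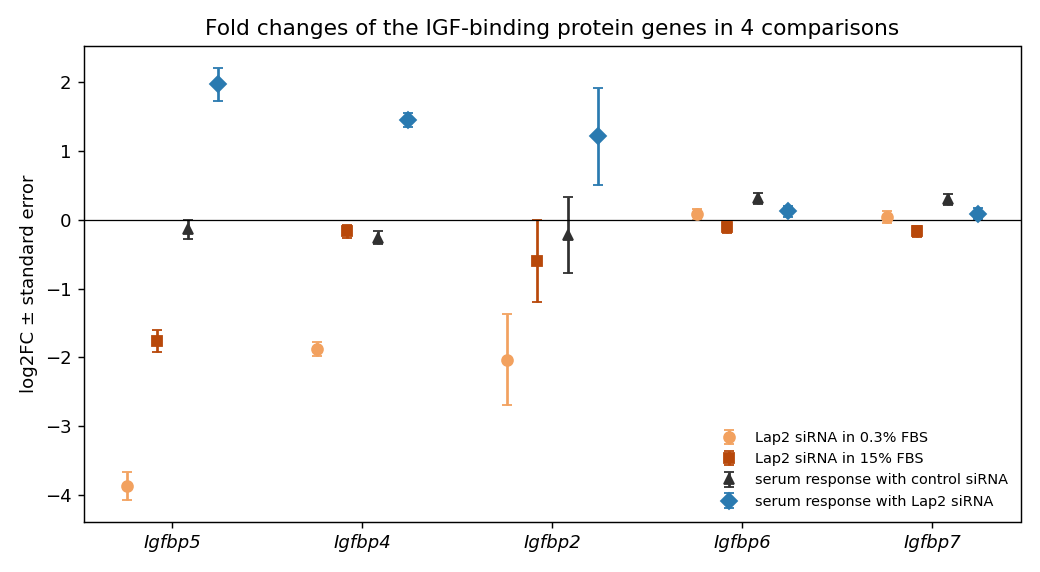
The log2FC of 5 IGF-binding protein genes for Lap2 siRNA against control siRNA in each medium and for 15% against 0.3% FBS with each siRNA. Symbols are estimates and bars are standard errors from the fit to 12 libraries. Igfbp5 and Igfbp4 are low with Lap2 siRNA in 0.3% FBS (−3.87 and −1.88) and high for serum with Lap2 siRNA (1.97 and 1.45), and Igfbp6 and Igfbp7 stay near 0.

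The other genes of the IGF system were counted by the same test, and the counts are read beside the shares over all genes tested. Serum raised 15.6% and lowered 13.9% of all genes in control cells, and raised 18.3% and lowered 14.9% in Lap2-depleted cells. Lap2 siRNA raised 17.8% and lowered 18.6% in 0.3% FBS, and raised 11.4% and lowered 12.1% in 15% FBS. The interaction was positive for 7.09% and negative for 6.51%.

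Among the ligands, receptors and adaptors of the IGF system, 10 of 14 genes were tested. With Lap2 siRNA in 0.3% FBS 6 were lower and 0 higher (median log2FC −0.29, against 0.01 over all genes, of which 18.6% were lower), and in 15% FBS 3 were lower and 0 higher (median −0.17, against 0.02, with 12.1% lower). Igf2, which encodes the fetal growth factor that these proteins bind, had 10367, 17413 and 12954 normalized counts in starved control cells and 1001, 1116 and 1507 in starved Lap2-depleted cells. It had 15851, 14878 and 16604 in stimulated control cells and 16693, 8815 and 11266 in stimulated Lap2-depleted cells. The starved Lap2-depleted libraries lay far below the other 9. Igf2 fell to 8.90% of control with Lap2 siRNA in 0.3% FBS (log2FC −3.49 ± 0.17, edgeR adjusted p = 1.9e-17) and rose 10.2-fold with serum in Lap2-depleted cells (log2FC 3.34 ± 0.17, adjusted p = 1.5e-17). The interaction was 3.13 ± 0.22 (adjusted p = 3.3e-12). In 15% FBS the log2FC with Lap2 siRNA was −0.36 ± 0.15 (adjusted p = 0.075), and it passed at −0.65 (adjusted p = 0.00074) without replicate 1 of the stimulated Lap2-depleted cells. It also passed at −0.37 with no filter except 1 count (adjusted p = 1.1e-07), and with the 2 groups alone or a replicate block (adjusted p = 0.039 each). Without the filter the standard error was 0.06, against 0.15 in the main fit on the same libraries. The stimulated groups overlapped, at 8815 to 16693 with Lap2 siRNA and 14878 to 16604 with control siRNA, so the smaller p-value does not reflect a clearer separation of libraries. With control siRNA serum gave Igf2 a log2FC of 0.22 ± 0.15 (adjusted p = 0.31). This became 0.45 (adjusted p = 0.025) without replicate 2 of the starved control cells, and 0.21 ± 0.06 (adjusted p = 0.0055) with no filter except 1 count. The starved and stimulated control libraries overlapped.

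Igf1, the other ligand, was rarer and had a log2FC of −0.37 ± 0.13 with Lap2 siRNA in 0.3% FBS (adjusted p = 0.027), a call lost without replicate 2 (−0.33) or 3 (−0.30) of the starved control cells and without replicate 1 (−0.32) or 3 (−0.36) of the starved Lap2-depleted cells. Scaling to total counts also lost this call (−0.26, adjusted p = 0.13). In Lap2-depleted cells serum gave Igf1 a log2FC of 0.48 ± 0.13 (adjusted p = 0.0043), a call lost under scaling to total counts (0.25, adjusted p = 0.14). Igf2r, which encodes the receptor that clears IGF2, fell with Lap2 siRNA in both media (log2FC −1.09 ± 0.07, adjusted p = 6.7e-14, and −0.91 ± 0.07, adjusted p = 1.2e-11). Igf1r, which encodes the signalling receptor, had a log2FC of −0.20 ± 0.08 in 0.3% FBS (adjusted p = 0.035), a call lost without replicate 1 (−0.20), 2 (−0.17) or 3 (−0.19) of the starved control cells and without replicate 1 of the starved Lap2-depleted cells (−0.07). The Igf1r call was also lost with DESeq2 (−0.19, adjusted p = 0.061) and under scaling to total counts (−0.09, adjusted p = 0.36).

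Irs1 and Irs2 encode adaptors that carry the receptor's signal. Serum lowered Irs1 with control siRNA (log2FC −1.27 ± 0.08, adjusted p = 1.6e-14) and with Lap2 siRNA (−1.23 ± 0.09, adjusted p = 1.5e-13), and Irs1 was lower with Lap2 siRNA in both media (−0.56 ± 0.08, adjusted p = 7.8e-07, and −0.52 ± 0.09, adjusted p = 3.1e-05). Irs2 rose 1.99-fold with serum in control cells ( log2FC 1.00 ± 0.09, adjusted p = 7.4e-11). In Lap2-depleted cells its response was 0.30 ± 0.09 (adjusted p = 0.012), which was lost at 0.12 without replicate 1 of the starved and at 0.26 without replicate 1 of the stimulated Lap2-depleted cells. It was also lost under scaling to total counts (0.06), upper-quartile scaling (0.19) and a fit of the 2 groups alone (0.29). The interaction for Irs2 was −0.70 ± 0.13 (adjusted p = 0.00019), the opposite sign to Igfbp4 and Igf2.

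**Figure D4:**
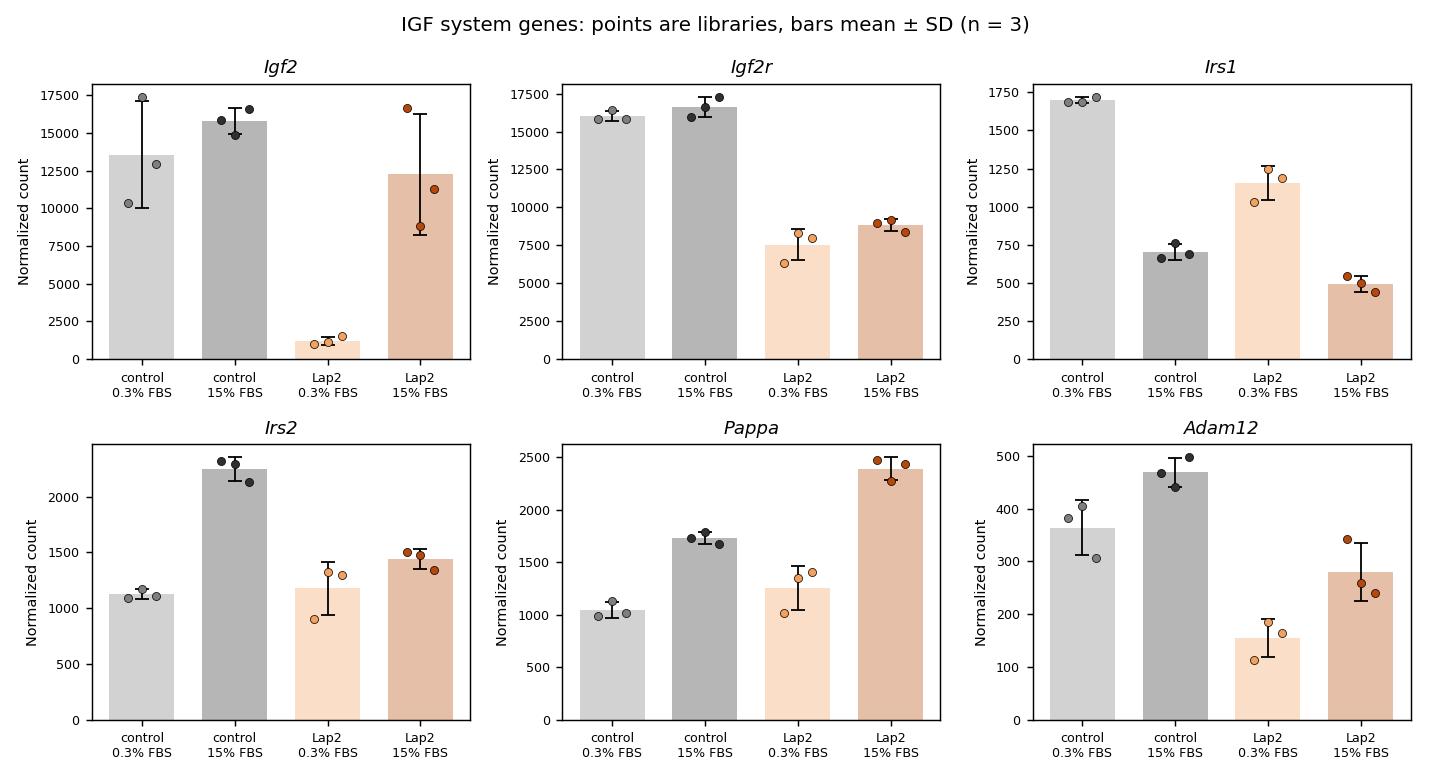
Normalized counts of Igf2, Igf2r, Irs1, Irs2, Pappa and Adam12 in the 4 groups. Points are libraries, bars are means and error bars are SD (n = 3). Igf2 is lowest in starved Lap2-depleted cells (mean 1208), Igf2r is lower in both Lap2-depleted groups, and Irs1 falls with serum under both siRNAs.

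Of the proteases that cut IGF-binding proteins, their inhibitors and the ternary complex protein, 16 of 17 genes were tested. Serum raised 8 and lowered 0 in control cells (median log2FC 0.38, against −0.01 over all genes, of which 15.6% rose) and raised 10 and lowered 0 in Lap2-depleted cells (median 0.71, against 0.00, with 18.3% raised). Pappa encodes the protease that cuts the products of Igfbp4 and Igfbp5, and it rose with serum in control cells (log2FC 0.72 ± 0.09, adjusted p = 2.2e-08) and in Lap2-depleted cells (0.93 ± 0.08, adjusted p = 8.1e-11). Stc2, which encodes an inhibitor of that protease, rose under both siRNAs as well (1.37 ± 0.32, adjusted p = 0.00098, and 1.48 ± 0.32, adjusted p = 0.00043). Plau, which encodes a plasminogen activator, rose in control cells (log2FC 4.19 ± 0.09, adjusted p = 1.5e-28).

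With Lap2 siRNA the same list split, with 3 genes up and 6 down in starved cells and 2 up and 6 down in stimulated cells. Adam12, which encodes a protease that cuts the products of Igfbp3 and Igfbp5, fell in both media (−1.25 ± 0.14, adjusted p = 1.2e-08, and −0.75 ± 0.13, adjusted p = 5.4e-05). The matrix metalloproteinase genes Mmp2 (−0.67 ± 0.06, adjusted p = 4.8e-11) and Mmp14 (−0.68 ± 0.06, adjusted p = 1.5e-10) fell in 0.3% FBS. Pappa and its relative Pappa2 rose with Lap2 siRNA in 15% FBS (0.47 ± 0.08, adjusted p = 5.7e-05, and 0.86 ± 0.20, adjusted p = 0.0012). In 0.3% FBS they had log2FC of 0.26 ± 0.09 (adjusted p = 0.017) and 0.53 ± 0.20 (adjusted p = 0.039). Both of these calls were lost without replicate 1 (0.23 and 0.38) or 3 (0.25 and 0.52) of the starved control cells and without replicate 2 (0.22 and 0.55) or 3 (0.18 and 0.37) of the starved Lap2-depleted cells. A fit of the 2 groups alone also lost both calls (0.25 and 0.52). Stc1, which encodes another inhibitor, had a log2FC of −1.64 ± 0.49 in 0.3% FBS (adjusted p = 0.0073) on a mean of 6.21 normalized counts in Lap2-depleted cells, and the call was lost at −0.88 without replicate 2 of the starved control cells.

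Relatives that carry the IGF-binding domain moved in both directions. Of 10 tested among 14, 5 were higher and 2 lower with Lap2 siRNA in starved cells (median log2FC 0.44), and 3 were higher and 2 lower in stimulated cells (median −0.11). The 2 lower in starved cells were Crim1 (−0.36 ± 0.08, adjusted p = 0.00029) and Ccn4 (−0.57 ± 0.10, adjusted p = 1e-05). Ccn5, which encodes a matricellular protein, rose in both media (0.66 ± 0.09, adjusted p = 2.1e-07, and 0.77 ± 0.09, adjusted p = 2.4e-08). Kazald1 had log2FC of 0.33 ± 0.12 (adjusted p = 0.026) and 0.41 ± 0.12 (adjusted p = 0.013). Its call in 0.3% FBS was lost without replicate 2 (0.25) or 3 (0.29) of the starved control cells or replicate 1 of the starved Lap2-depleted cells (0.27), and in 15% FBS without replicate 1 of the stimulated control cells (0.33) or replicate 3 of the stimulated Lap2-depleted cells (0.37). A fit of the 2 groups alone also lost the Kazald1 call in 0.3% FBS (0.31). Igfbp1, the neighbour of Igfbp3, was at 0 in 3 of 4 groups and had a mean of 0.353 normalized counts in the other.

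Of 12 surface and matrix partners, 6 were lower and 4 higher with Lap2 siRNA in starved cells (median log2FC −0.24), and 8 were lower and 1 higher in stimulated cells (median −0.52). Itgb3, which encodes an integrin subunit, fell in both media (−1.63 ± 0.12, adjusted p = 3.8e-13, and −1.48 ± 0.12, adjusted p = 8.7e-12). Spp1, which encodes osteopontin, rose in both (2.29 ± 0.08, adjusted p = 8.4e-21, and 1.43 ± 0.08, adjusted p = 2.4e-15). Serum raised 6 partners and lowered 0 in control cells, among them the integrin subunit gene Itga5 (2.93 ± 0.08, adjusted p = 1.9e-25). In Lap2-depleted cells serum raised 5 and lowered 3, and the interaction was positive for 1 and negative for 5 of those that passed.

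Downstream of the IGF1 receptor all 18 genes were tested, and with Lap2 siRNA 5 were higher and 8 lower in starved cells, and 3 rose while 3 fell in stimulated cells, beside 36.5% and 23.4% of all genes called. Serum raised 4 and lowered 6 in control cells, where the FOXO factor genes Foxo1 (−1.03 ± 0.10, adjusted p = 2.8e-10) and Foxo3 (−0.99 ± 0.07, adjusted p = 1.7e-13) fell. Over all 73 genes of the IGF system lists, binding proteins included, 64 were tested, and 32 passed for serum in control cells (29.5% of all genes did), 42 for serum in Lap2-depleted cells (33.2%), 45 for Lap2 siRNA in 0.3% FBS (36.5%), 31 in 15% FBS (23.4%) and 25 for the interaction (13.6%).

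The genes beside the members moved in both directions with Lap2 siRNA in 0.3% FBS. Tns4, a tensin gene 11285 bp from Igfbp4 with a mean of 15.4 normalized counts in control cells, was lower (−1.72 ± 0.57, adjusted p = 0.016), and its interaction was 2.68 ± 0.80 (adjusted p = 0.021), so both values had the signs of those of Igfbp4. The first call was lost without replicate 2 of the starved control cells (−1.65) or of the starved Lap2-depleted cells (−1.38). The second was lost without the same libraries (2.60 and 2.33) and without replicate 1 (2.52) or 3 (2.31) of the stimulated Lap2-depleted cells. On the other side Top2a, a cell division gene 17054 bp away, was higher (0.82 ± 0.07, adjusted p = 8e-12). Among the more distant neighbours, Tns3 (−0.47 ± 0.07, adjusted p = 5.9e-07), 1217728 bp from Igfbp3, and Adgrl3 (−0.67 ± 0.09, adjusted p = 1.4e-07), 3612096 bp from Igfbp7, were lower. Noa1 (0.31 ± 0.09, adjusted p = 0.0077), 39155 bp away on the other side of Igfbp7, was higher. Soat2, beside Igfbp6, had a log2FC of 1.00 ± 0.76 (adjusted p = 0.34). Rpl37a, 110689 bp from Igfbp2, had −0.15 ± 0.10 (adjusted p = 0.25) and passed at −0.38 (adjusted p = 4.5e-08) without replicate 1 of the starved Lap2-depleted cells. Tnp1, 140189 bp from Igfbp5, was at 0 in all groups. Spryd3, 8127 bp from Igfbp6, was higher in both media (0.65 ± 0.08, adjusted p = 8e-08, and 0.40 ± 0.08, adjusted p = 0.00047). Igfbp7 overlaps the 3′ end of Polr2b and the antisense gene Gm34648 on the opposite strand. Polr2b, an RNA polymerase II subunit gene, was higher with Lap2 siRNA in both media (0.31 ± 0.07, adjusted p = 0.00034, and 0.36 ± 0.07, adjusted p = 9.3e-05). The library kit keeps strand, but the strand setting of the counting is not given in the sources used here, so how reads of the overlap were assigned is not known. The overlap with Polr2b spans only chr5:77349240-77349324, and Gm34648 had a mean of at most 0.33 normalized counts in any group.

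The genes whose pattern was most like that of Igfbp5 were ranked by Pearson's r of log2 CPM over 12 libraries among 10445 genes with at least 100 normalized counts on average. They were Mmp9 (r = 0.994), Tubb2b (0.992), Tulp3 (0.992), Itga9 (0.991) and Tspan9 (0.991). With Spearman's rho 0 of these 5 stayed among the top 5. The libraries share 4 group means, and the values describe likeness only. With Lap2 siRNA in 0.3% FBS their log2FC were −1.95 ± 0.09 for Mmp9, −2.36 ± 0.08 for Tubb2b, −0.74 ± 0.07 for Tulp3, −2.01 ± 0.09 for Itga9 and −1.66 ± 0.07 for Tspan9, all smaller in size than that of Igfbp5. In 15% FBS they were −0.85 ± 0.08, −1.24 ± 0.08, −0.35 ± 0.07, −1.11 ± 0.08 and −0.87 ± 0.07 in the same order. For the other members the closest genes were Ndrg1 for Igfbp4 (r = 0.996), Fam53a for Igfbp2 (0.930), Wdyhv1 for Igfbp6 (0.916) and Ndfip2 for Igfbp7 (0.897).

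Among the 11 fibroblast markers, the matrix genes Col3a1, Dcn and Lum and the receptor gene Pdgfra, named because they fell far, were lower with Lap2 siRNA in the starved cells in which Igfbp4, Igfbp5 and Igf2 were lowest (log2FC −1.67 ± 0.07, −1.52 ± 0.08, −1.34 ± 0.08 and −1.61 ± 0.09). Their adjusted p-values were 1.6e-18, 7.3e-17, 5.4e-15 and 2.3e-16. From the same list the fibronectin gene Fn1 (0.37 ± 0.07, adjusted p = 9.2e-05) and S100a4 (0.46 ± 0.11, adjusted p = 0.0012) were higher, and Pdgfrb had a log2FC of 0.15 ± 0.07 (adjusted p = 0.079).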

How the data were processed

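RNA-seq counts of NIH 3T3 cells were analysed (4 groups of 3 libraries, 18026298 to 26265253 counts each). The authors aligned reads with TopHat2 to mm10 with default settings and counted them per gene with HTSeq, and the deposited values are raw counts. No row lacked a gene, no 2 libraries were identical, and 99.3% of identifiers had a symbol. Counts were fitted with edgeR 4.0.16 (R 4.3.3), with TMM scaling and a mean per group over 12 libraries, keeping genes that exceeded 1 count in 3 or more libraries, and tested by the quasi-likelihood test with Benjamini-Hochberg adjustment at 0.05 over 18668 genes. The standard error is the log2FC divided by the root of F. Likeness used a prior count of 2. Levels were CPM per kb of GENCODE exon union. The script was tested on simulated data.

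The members and gene lists were chosen with earlier results of these data known. The rule for named genes took the members, the IGF system lists, Tmpo, neighbours and overlapping genes, and the genes most like each member (5 for Igfbp5, 1 for each other). The examples printed from the lists, and the fibroblast markers named, were picked after their values were seen. Some results are not reported here, and the neighbours, Fn1, S100a4, Pdgfrb, Crim1 and Ccn4 were added so that both directions are shown.

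Replicate numbers follow the order of the sample titles within each group and were not used as pairs in the main fit. Same-numbered libraries correlated at −0.12 to 0.10 in their deviations from group means. Alternatives were DESeq2 1.42.0, scaling to total counts or the upper quartile, other filters, the 2 groups alone, a replicate block, a threshold of 0.01, and each library left out.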

Additional observations from a re-analysis of the deposited data

Results flagged for a closer look

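The serum response with Lap2 siRNA differed from that with control siRNA, by the interaction test of edgeR, for Igf2 (3.13 ± 0.22 on the log2 scale, adjusted p = 3.3e-12), Irs2 (−0.70 ± 0.13, adjusted p = 0.00019) and Tns4, a neighbour of Igfbp4 (2.68 ± 0.80, adjusted p = 0.021). The difference was 1.71 ± 0.14 for Igfbp4 and 2.11 ± 0.28 for Igfbp5, whose decrease chose the family. Both values are descriptions. Igfbp4, Igfbp5 and Igf2 rose in Lap2-depleted cells from a low starved level, and Irs2 rose less there than in control cells.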

How the results depend on the processing

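Of 349 recomputed log2FC of the members, 327 kept their direction and side of the threshold, 12 lost a call, 3 gained one and 7 changed sign. The 349 include the Lap2 siRNA comparisons, from which the family was chosen, and every comparison of Igfbp5. Nothing is read from the tally for those. Of 1014 for other named genes, 967 kept both, 40 lost a call and 7 gained one. Values for which DESeq2 gave no adjusted p were left out. Of 150 recomputed counts of calls, 148 stayed within 1.5 times. Scaling to total counts gave log2FC of −0.11 for Igfbp6 and −0.14 for Igfbp7 for serum in Lap2-depleted cells, and upper-quartile scaling gave −0.02 for Igfbp7. Over all genes, total-count scaling turned 2915 higher and 2597 lower calls for serum in control cells into 1632 and 5847, those in Lap2-depleted cells from 3420 and 2777 into 1658 and 5951, and Lap2 siRNA calls from 3330 and 3480 into 4692 and 2638 in 0.3% FBS and from 2125 and 2250 into 3471 and 1678 in 15% FBS. Leaving out 1 library at a time gave, for serum in control cells, −0.49 to 0.46 for Igfbp2 and −0.20 to 0.00 for Igfbp5, and with Lap2 siRNA −0.20 to 0.00 for Igfbp6 in 15% FBS and −0.02 to 0.11 for Igfbp7 in 0.3% FBS. Members called then ranged from 0 to 3 for serum in control cells and from 1 to 2 for Lap2 siRNA in 15% FBS, where Igfbp7 was added without replicate 2 of the stimulated control cells. Of the 5 genes most like Igfbp5, 0 were kept with Spearman's rho. The cause was not tested. With the replicate block, calls over all genes were 5509, 6121, 6756, 4343 and 2553 against 5512, 6197, 6810, 4375 and 2540. Among the named results Igf2 with Lap2 siRNA in 15% FBS then gained a call (log2FC −0.37, adjusted p = 0.039). In 3 of 12 comparisons of same-numbered libraries between 2 groups, the correlation exceeded that with the other numbers. Counts of at most 27 reads limit Igfbp2, and Igfbp3 was not detectable at this depth.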
